A study of Mus musculus with 48 samples.

Results

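Livers of 6 male C57BL/6J mice were compared with livers of 6 female C57BL/6J mice, all fed a low-fat diet (LFD) and given vehicle once a week until tissue was collected after 12 weeks. C57BL/6J is a common inbred laboratory strain, and the animals of both sexes carry no mutation or transgene in the labels. These 12 livers were the unexposed, low-fat arm of a series of 48 livers that also holds a high-fat diet (HFD) and a mixture of dioxin-like compounds, dosed weekly at 10 ng/kg TCDD, 80 ng/kg PeCDF and 140 ng/kg PCB126. Poly(A) RNA of each liver was sequenced and deposited as TPM (reads corrected for gene length and scaled to a total of 1000000 in every library). Age, housing, time of day and stage of the oestrous cycle were not used here. Genes were kept when they lay on an autosome and reached 1 TPM in at least 6 of the 12 libraries, which 13030 of 44787 autosomal genes did. Of the 13030, 11057 reached 1 TPM in all 12 libraries. A further 26 did so in male libraries only and 40 in female libraries only, so these 66 entered through the sex in which they were high and had to differ. Moxd1, Cux2, Arntl, Cyp3a44, Cyp3a16, Cyp3a41b, Slc22a26 and Slc22a27, named below, are among them. At the edge of the filter, 360 genes reached 1 TPM in exactly 6 libraries, with a median level of 1.13 TPM, and 332 left out did so in exactly 5, with a median of 0.971 TPM.

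The mouse liver is one of the organs whose gene expression depends most on sex in adult animals. The pituitary secretes growth hormone in pulses in males and more continuously in females, and hepatocytes read this pattern through the growth hormone receptor, the kinase JAK2 and the transcription factor STAT5B. Best-known outputs in mice are the major urinary proteins, pheromone carriers that males excrete in bulk, and cytochrome P450 and sulfotransferase genes that metabolise steroids and foreign compounds in a sex-dependent way.

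The libraries went with their labels. Xist, the non-coding RNA of the inactive X chromosome, was at most 0.792 TPM in males and at least 54.9 TPM in females, and the Y-linked Ddx3y was at least 25.0 TPM in males and at most 0.508 TPM in females. Albumin (Alb) was at 59550 to 108700 TPM in males and 97040 to 117200 TPM in females. Pearson correlations of log2(TPM + 1) were 0.958 to 0.982 between libraries of one sex and 0.923 to 0.949 between libraries of different sex. Skeletal muscle transcripts were present in some libraries. The summed level of 13 muscle genes reached 839 TPM in male replicate 4 and 394 TPM in male replicate 5 against a male median of 36.2 TPM, and reached 9787 TPM in female replicate 3 against a female median of 53.3 TPM. Male replicate 4 also held 498 TPM of Igkc, an antibody light chain, against a male median of 23.97 TPM. Counts of the gene groups below without these 3 libraries are added where they differed by over 1.5 times.

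The sexes differed in 2924 autosomal genes, 22.4% of those tested (limma with Benjamini-Hochberg adjustment over 13471 genes, adjusted p under 0.05). Males were higher in 808 genes (6.2%) and females in 2116 genes (16.2%). Without adjustment 4612 genes had a p under 0.05. The male and female libraries did not overlap at all for 1403 genes (10.8%), 405 with males above females (3.11%) and 998 with females above males (7.66%). Most differences were small, since 52.7% of the genes higher in males and 66.7% of those higher in females differed by less than 1.5-fold. At 2-fold or more there were 211 genes higher in males and 232 higher in females, at 4-fold or more 68 and 74, and at 16-fold or more 23 and 24. Fold here is on the log2(TPM + 1) scale, which understates the change of genes with few transcripts. The labels name no batch, so each p-value reflects only how much these libraries varied.

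The balance between the directions rested on how libraries were scaled. The major urinary proteins (Mup genes) summed to between 27850 and 46920 TPM in males and between 2441 and 4848 TPM in females, and the 68 genes at least 4-fold higher in males summed to a median of 57120 TPM in males and 4486 TPM in females. TPM has a fixed total, and the median log2 difference over all autosomal genes was -0.09 (male minus female). After a trimmed-mean scaling of the libraries that median was -0.00, males were higher in 1312 genes (10.1%) and females in 1155 genes (8.86%). The share of called genes higher in males was then 53.2%, against 27.6% without scaling. All 808 genes first called higher in males were called again, as were 1155 of the 2116 higher in females, and 0 genes were called in opposite directions. The larger differences did not depend on it: 142 of 142 called genes at 4-fold or more and 435 of 443 at 2-fold or more were also called after scaling. Among the gene groups below, 8 changed which direction held more genes after scaling, and counts after scaling are added to each group that differed. The shares of all genes to set beside those scaled counts are 10.1% and 8.86%. With TPM rescaled without the Mup genes instead, 963 of the other genes were higher in males and 1488 in females. What moved the balance was not tested.

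**Figure D1:**
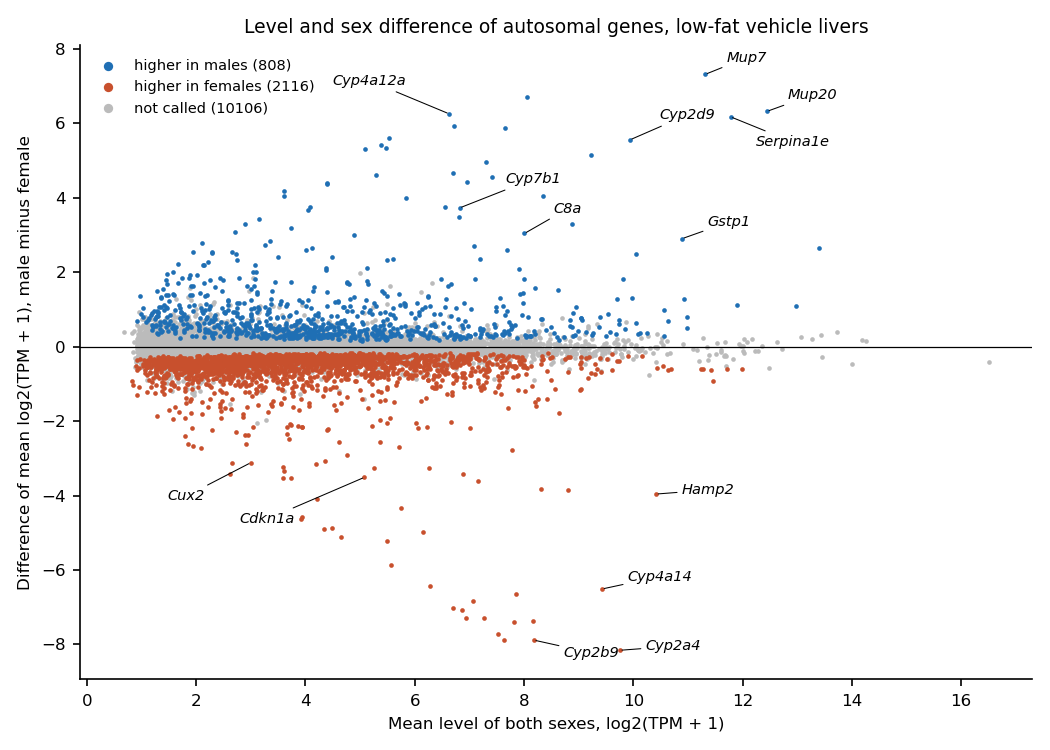
Each point is 1 of 13030 autosomal genes, by its mean level over both sexes (x axis, log2(TPM + 1)) and its male minus female difference in log2(TPM + 1) (y axis); blue points were called higher in males (808), red points higher in females (2116), and grey points were not called. Most called genes lie within 1 log2 unit of 0, while Mup20, Mup7 and Serpina1e combine a high level with a large difference.

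Of the 12 named genes (largest log2 differences with at least 5 TPM in males, predicted genes left out), 6 were Mup genes or pseudogenes of chromosome 4. Mup20, which encodes darcin, a urinary pheromone of males, was at 9178, 10840 and 13690 TPM (lowest, median and highest library) in males and at 107, 138 and 178 TPM in females. Its log2 difference was 6.33 (SE 0.13, limma adjusted p = 1.41e-12), and every male library lay far above every female library. Mup7 (chromosome 4, 60066469 to 60070475, minus strand) had the largest difference of all, with 2102, 4698 and 8006 TPM in males and 11.5, 34.3 and 42.9 TPM in females (7.32, SE 0.34, limma adjusted p = 6.53e-09). Mup14 stood at a median of 452 TPM in males and 3.39 TPM in females (6.71), and Mup11 at 189 TPM in males and 2.22 TPM in females (5.94). The pseudogenes Mup-ps20 and Mup-ps19 differed by 5.43 and 5.32. Mup genes are near-identical copies, and how their shared reads were assigned is not stated in the labels or headers, so the family as a whole is firmer than any 1 copy. All 19 Mup genes tested were called higher in males, with Mup3 at 18606 ± 2620 TPM in males and 3035 ± 924 TPM in females (SD, n = 6 per sex; 2.66) as the most abundant.

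The remaining leading genes higher in males encode steroid, fatty acid and drug metabolising enzymes and a secreted protease inhibitor. Cyp2d9, a testosterone hydroxylase, varied little within a sex, with 1673, 1928 and 2068 TPM in males and 30.8, 39.4 and 52.1 TPM in females (5.56, limma adjusted p = 8.16e-13). Hsd3b5, which reduces ketosteroids, was at 292, 396 and 458 TPM in males and at 2.70, 3.92 and 17.4 TPM in females (5.87). Cyp4a12a, a fatty acid hydroxylase, was at 102, 172 and 321 TPM in males and 1.15, 1.41 and 1.54 TPM in females (6.26), and its neighbour Cyp4a12b differed by 5.60. Neither enzyme group showed overlap between the sexes, but these genes were picked for large differences. Serpina1e, an alpha-1-antitrypsin family member, was at 3982, 6413 and 10340 TPM in males and 43.8, 86.2 and 199 TPM in females (6.18). Its close copies Serpina1b and Serpina1d were abundant in both sexes, with 4029 ± 242 and 4131 ± 216 TPM in males and 4009 ± 266 and 4089 ± 328 TPM in females (SD, n = 6 per sex), log2 differences of 0.01 and 0.02 that did not pass (limma adjusted p = 0.954 and 0.891). Moxd1, a copper-dependent monooxygenase homologue, ranged more widely in males than the other named genes, from 6.80 through a median of 54.7 to 201 TPM, against 0, 0.414 and 0.783 TPM in females (5.34, SE 0.62, limma adjusted p = 6.20e-05). Moxd1 passed the filter through males alone, so its p-value is no separate evidence.

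**Figure D2:**
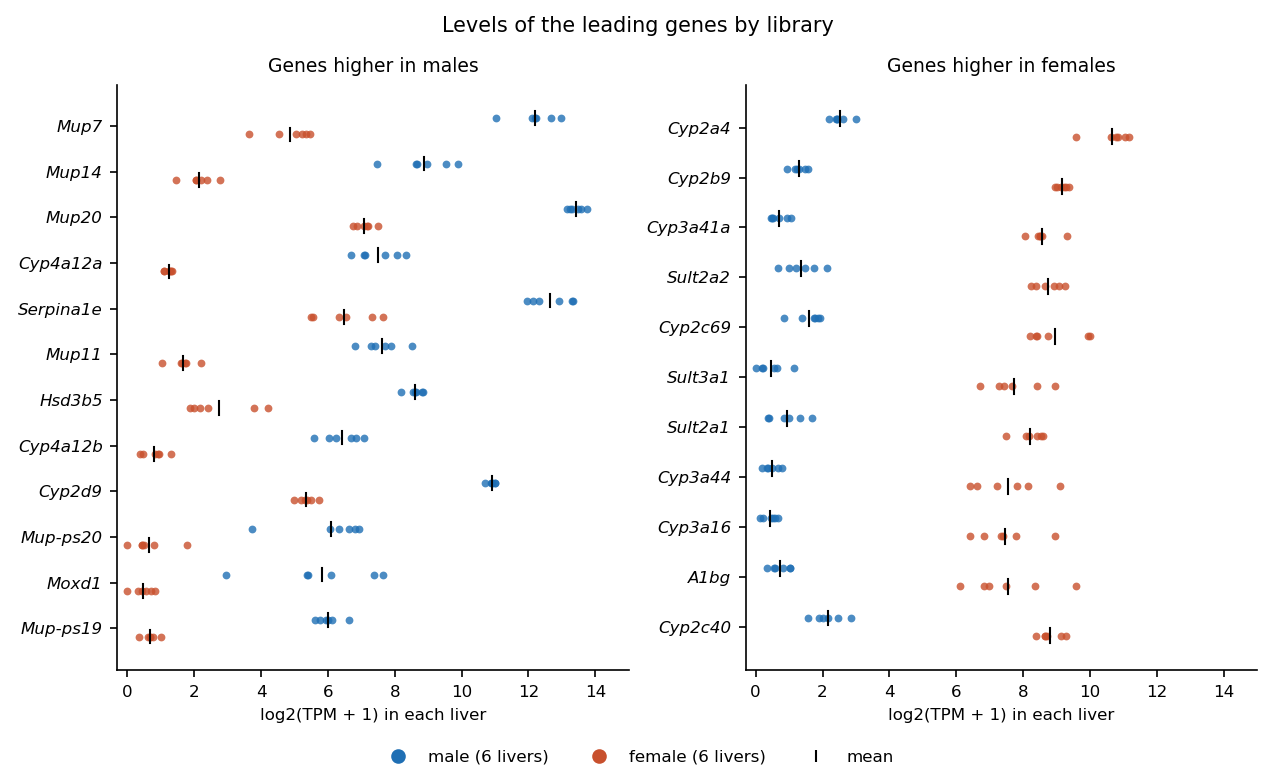
Level of the leading genes in every library, 12 higher in males and 11 higher in females (x axis, log2(TPM + 1)), with males in blue above females in red for each gene; points are libraries and bars are means. The libraries of the sexes do not overlap for any of the 23 genes, which were picked for large differences in these same libraries. Over all autosomal genes tested 1403 (10.8%) did not overlap. For Moxd1, Cyp3a44 and Cyp3a16 the filter fixed it.

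On the other side, 7 of the 11 genes described were cytochrome P450 genes. Cyp2a4, a testosterone hydroxylase (chromosome 7, 26307169 to 26315088, plus strand), was at 3.62, 4.38 and 6.97 TPM in males and at 763, 1786 and 2310 TPM in females. The log2 difference of -8.16 (SE 0.23, limma adjusted p = 3.84e-11) was the most negative of all autosomal genes tested. Cyp2b9 was the most uniform, with 0.922, 1.42 and 1.95 TPM in males and 500, 579 and 664 TPM in females (-7.88, SE 0.10, limma adjusted p = 1.99e-14). Cyp3a41a was at 0.388, 0.532 and 1.10 TPM in males and 267, 362 and 639 TPM in females (-7.87), and its relatives Cyp3a44 and Cyp3a16 differed by -7.08 and -7.02. Cyp2c69 and Cyp2c40, of the cluster on chromosome 19, differed by -7.36 and -6.65. For these P450 genes the male libraries held at most 6.97 TPM and the female libraries at least 83.6 TPM.

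Sulfotransferases and a plasma glycoprotein gene completed this group. Sult2a2 and Sult2a1, which sulfonate hydroxysteroids and bile acids, were at medians of 1.54 and 0.908 TPM in males and 444 and 314 TPM in females (-7.39 and -7.28). Sult3a1, an amine sulfotransferase, was at 0, 0.320 and 1.21 TPM in males and 104, 188 and 491 TPM in females (-7.28). A1bg, the glycoprotein gene, was at 0.263, 0.628 and 1.04 TPM in males and ranged widely in females, at 67.8, 152 and 774 TPM (-6.84). Of all genes at least 4-fold higher in females, 17 stayed under 1 TPM in every male library, and 11 of those at least 4-fold higher in males stayed under 1 TPM in every female library.

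Pairs of P450 genes with nearly the same promoter are shown because their levels allow a direct comparison of copies. The promoter windows are RefSeq sequences of GRCm38.p6, 300 bases around the start of each gene, most of them before it, 5′ to 3′, and capitals mark the bases that differ within a pair. Cyp2a4 (chr7:26306942-26307241, plus strand) and Cyp2a5 (chr7:26835089-26835388, plus strand) were identical at 294 of 299 aligned bases (98.3%), with the substitutions C19T, T131C, G161A, G205T and T270C, counted from the 5′ end of the Cyp2a4 window with the Cyp2a4 base first.
Cyp2a4: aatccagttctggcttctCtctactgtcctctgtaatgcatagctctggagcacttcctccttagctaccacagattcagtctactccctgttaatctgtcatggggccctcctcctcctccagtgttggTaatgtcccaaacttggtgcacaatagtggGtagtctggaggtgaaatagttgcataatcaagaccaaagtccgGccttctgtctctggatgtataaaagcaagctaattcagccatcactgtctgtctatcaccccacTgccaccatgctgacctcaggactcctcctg
Cyp2a5: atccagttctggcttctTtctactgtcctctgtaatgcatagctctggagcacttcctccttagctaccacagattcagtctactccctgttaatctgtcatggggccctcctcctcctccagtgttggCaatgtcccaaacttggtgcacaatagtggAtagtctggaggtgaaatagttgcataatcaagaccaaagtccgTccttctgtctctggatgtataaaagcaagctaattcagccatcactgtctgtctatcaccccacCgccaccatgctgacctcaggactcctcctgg
Cyp2a5, a coumarin hydroxylase, was at 507 ± 150 TPM in males and 856 ± 351 TPM in females (SD, n = 6 per sex), a log2 difference of -0.66 (SE 0.34) that did not pass (limma adjusted p = 0.187), so it was abundant in both sexes, unlike Cyp2a4. The other pair, Cyp2b9 (chr7:26173159-26173458, plus strand) and Cyp2b13 (chr7:26061245-26061544, plus strand), was identical at 298 of 300 bases (99.3%), with the substitutions T48C and C104T counted from the 5′ end of the Cyp2b9 window, Cyp2b9 base first.
Cyp2b9: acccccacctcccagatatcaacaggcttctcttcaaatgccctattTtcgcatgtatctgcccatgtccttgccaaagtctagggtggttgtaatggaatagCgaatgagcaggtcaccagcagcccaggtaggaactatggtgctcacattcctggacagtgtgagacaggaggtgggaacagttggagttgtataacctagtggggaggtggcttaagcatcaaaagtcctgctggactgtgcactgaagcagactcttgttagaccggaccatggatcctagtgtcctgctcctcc
Cyp2b13: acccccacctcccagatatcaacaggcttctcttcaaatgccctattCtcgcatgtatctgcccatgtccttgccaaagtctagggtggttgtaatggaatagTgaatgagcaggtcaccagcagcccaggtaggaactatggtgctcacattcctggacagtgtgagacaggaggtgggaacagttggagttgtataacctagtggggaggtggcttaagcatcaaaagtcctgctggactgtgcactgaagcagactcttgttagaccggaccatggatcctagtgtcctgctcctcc
Both were higher in females, with Cyp2b13 at 0.751 ± 0.425 TPM in males and 153 ± 46.5 TPM in females (-6.42, SE 0.23, limma adjusted p = 4.35e-10). Reads that fit both copies of a pair can have been assigned to either, which the values do not show.

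Promoter windows were searched on both strands for TTCNNNGAA, the core bound by STAT factors, and for CAAAGTCCA, a sequence bound by the hepatocyte nuclear factor HNF4A; the 2 motifs do not overlap. A window was found for 9270 of the 13030 genes. TTCNNNGAA stood in 8.36% of all of them, in 9.20% of those of genes higher in males and in 6.65% of those of genes higher in females. Among genes at 4-fold or more it stood in 4 of 34 windows (11.8%) for males and 6 of 52 (11.5%) for females. Windows of Moxd1, among the genes higher in males (chr10:24223267-24223566, plus strand), and of A1bg, among those higher in females (chr15:60921221-60921520, minus strand), are shown because both hold the same 9 letters, here in capitals.
Moxd1: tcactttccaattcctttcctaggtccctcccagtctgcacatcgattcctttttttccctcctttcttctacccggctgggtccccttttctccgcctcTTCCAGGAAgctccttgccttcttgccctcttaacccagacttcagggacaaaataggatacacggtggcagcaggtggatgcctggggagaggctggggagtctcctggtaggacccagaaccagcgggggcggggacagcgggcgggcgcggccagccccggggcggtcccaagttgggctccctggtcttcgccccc
A1bg: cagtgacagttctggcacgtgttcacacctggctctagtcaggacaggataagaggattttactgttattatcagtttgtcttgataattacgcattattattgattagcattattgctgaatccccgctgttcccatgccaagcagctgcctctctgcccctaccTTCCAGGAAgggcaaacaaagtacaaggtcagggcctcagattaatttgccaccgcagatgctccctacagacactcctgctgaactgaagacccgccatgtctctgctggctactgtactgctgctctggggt
CAAAGTCCA stood in 0.744% of all windows, in 8 of 587 (1.36%) of genes higher in males and 19 of 1565 (1.21%) of genes higher in females. It stood in 1 of 34 (2.94%) at 4-fold or more for males, that of the acetyltransferase-like gene Nat8, and in 5 of 52 (9.62%) for females. The 5 belong to Cyp2c40, Cyp2c69, Cyp3a16, Cyp3a41a and Cyp3a41b, close copies within each subfamily that share sequence and so are not separate instances. One window of each subfamily is shown with the motif in capitals, Cyp3a41a (chr5:145720087-145720386, minus strand) and Cyp2c40 (chr19:39812765-39813064, minus strand).
Cyp3a41a: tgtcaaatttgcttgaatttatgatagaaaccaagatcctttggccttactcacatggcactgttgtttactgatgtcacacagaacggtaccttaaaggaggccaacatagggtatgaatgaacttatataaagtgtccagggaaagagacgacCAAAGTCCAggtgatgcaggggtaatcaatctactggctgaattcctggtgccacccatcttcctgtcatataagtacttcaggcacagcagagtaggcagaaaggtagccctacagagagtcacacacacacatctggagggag
Cyp2c40: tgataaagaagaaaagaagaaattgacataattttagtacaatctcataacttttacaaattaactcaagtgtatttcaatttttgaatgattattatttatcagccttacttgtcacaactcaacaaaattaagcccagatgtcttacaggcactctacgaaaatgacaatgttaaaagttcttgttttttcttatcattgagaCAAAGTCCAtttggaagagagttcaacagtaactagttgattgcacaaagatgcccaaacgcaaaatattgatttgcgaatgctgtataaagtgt
A match gives letters in a window and no binding.

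Large differences lay in clusters of genes. Of the 68 genes at least 4-fold higher in males, 53 (77.9%) had another gene called higher in males within 100 kb, against 19.6% of all autosomal genes tested. Of the 74 at least 4-fold higher in females, 56 (75.7%) had a neighbour called higher in females within that distance, against 41.0% of all. Neighbours of the opposite direction were found for 16.2% and 13.5%, against 41.0% and 19.6% of all. Near-identical copies such as the Mup genes can share reads, so their neighbouring calls are not separate instances. Chromosome 4 held 23 of the 68, among them the Mup cluster, Cyp4a12a and Cyp4a12b, and the complement genes C8a and C8b. For females, chromosome 7 held 12, with the Cyp2a, Cyp2b and Sult2a genes and Hamp2, and chromosome 5 held 10, with 5 Cyp3a genes or pseudogenes.

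Among genes of the growth hormone pathway, Jak2 and Stat5b differed little, Ghr and Stat5a were called, and the prolactin receptor differed most. Of 21 genes tested, 3 were higher in males and 8 in females (5 in females after scaling), against 6.2% and 16.2% of all genes. The receptor gene Ghr was at 133, 150 and 160 TPM in males and 78.3, 104 and 124 TPM in females, without overlap (0.54, SE 0.10, limma adjusted p = 0.00249). Prlr, the prolactin receptor, was at 4.41, 6.34 and 7.60 TPM in males and 23.4, 31.2 and 45.4 TPM in females (-2.23, limma adjusted p = 9.96e-07). Jak2 and Stat5b, which encode the kinase and the main transducer, had log2 differences of -0.04 and -0.14 that did not pass, whereas Stat5a was lower in males (3.94 ± 0.388 TPM in males and 6.87 ± 1.48 TPM in females, -0.66, limma adjusted p = 0.00148). Target genes of the pathway in both sexes did not pass either: Igf1 was at 102, 111 and 129 TPM in males and 63.4, 86.0 and 132 TPM in females (0.26, limma adjusted p = 0.262), and the feedback inhibitors Socs2 and Cish had log2 differences of -0.21 and -0.10. Egfr, the epidermal growth factor receptor, was higher in males with overlapping libraries (86.5, 136 and 239 TPM in males and 27.0, 35.8 and 110 TPM in females, 1.70, limma adjusted p = 0.00322). Igfbp1, an insulin-repressed binding protein, was lower in males (-1.16). The feedback inhibitor Socs3 was called higher in males (1.06, limma adjusted p = 0.0444), but without male replicate 1, 3, 4 or 6 or female replicate 1, 2, 4, 5 or 6 that call ended, with adjusted p of 0.0130 to 0.0882 over the 12 libraries left out in turn.

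Transcription regulators known to separate the sexes downstream of growth hormone were among the differing genes. Of 24 regulators tested, 7 were higher in males and 6 in females (5 in females after scaling), against 6.2% and 16.2% of all genes. Cux2, a repressor expressed in female liver, was at 0.140, 0.357 and 0.498 TPM in males and 1.72, 14.2 and 27.7 TPM in females (-3.12, SE 0.44, limma adjusted p = 0.00033). Cux2 passed the filter through females alone, so its p-value is no separate evidence. Trim24, a chromatin reader and cofactor of nuclear receptors, was at 5.01, 5.69 and 6.79 TPM in males and 15.1, 21.5 and 28.2 TPM in females (-1.69, limma adjusted p = 6.29e-07), and Tox, an HMG-box factor, was lower in males as well (-1.54). None of these had overlapping libraries, which the filter fixed for Cux2. Over all genes 10.8% did not overlap, 7.66% with females above males. Bcl6, a repressor that is higher in male liver, was at 6.34, 20.95 and 38.4 TPM in males and 4.73, 5.94 and 11.1 TPM in females, with overlap. The log2 difference of Bcl6 of 1.25 (SE 0.42) was called at an adjusted p of 0.0487 by limma and lost the call without male replicate 2, 3, 5 or 6 or female replicate 2, 3, 4, 5 or 6 (adjusted p of 0.0183 to 0.0985 over the 12 libraries left out in turn) and without the 3 muscle-bearing libraries together. Ihh, a hedgehog ligand, was higher in males (1.38). The xenobiotic receptors CAR (Nr1i3) and PXR (Nr1i2) were lower in males, by -0.89 and -0.71 in log2. The hepatocyte factors Cebpa and Foxa3 were higher in males by 0.54 and 0.56, and Hnf4a was called lower (-0.33). The Hnf4a call ended after scaling and without male replicate 1, 2, 3 or 5 or female replicate 1, 2 or 6 (limma adjusted p between 0.012 and 0.19 over all settings). Onecut1 (HNF6) did not pass (0.28, limma adjusted p = 0.744). Of 13 hormone receptors tested, 2 were higher in males and 3 in females (2 and 2 after scaling). Esr1, the oestrogen receptor, was at 1.94, 2.44 and 4.86 TPM in males and 4.53, 5.74 and 7.97 TPM in females (-0.92, limma adjusted p = 0.00308), with overlap, and Nr3c2, the mineralocorticoid receptor, was higher in males (0.77).

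Lists of genes reported as sex-biased in mouse liver were drawn up with earlier results of these data known, so their direction adds no independent evidence. Of 36 male-biased genes tested, 35 were higher in males and 0 in females (36 and 0 after scaling), with a median log2 difference of 3.03, and Cspg5 was not called (0.34). Of 46 female-biased genes tested, 43 were higher in females, with a median of -3.84. The exceptions were Fmo4 (-0.58) and Ppp1r3g (1.14), which were not called, and Srd5a1, the steroid 5-alpha-reductase, which was higher in males with 87.5 ± 5.61 TPM in males and 46.3 ± 11.9 TPM in females (SD, n = 6 per sex; 0.94, limma adjusted p = 0.00035).

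The large families of drug metabolism split by subfamily. Of 36 Cyp2 genes tested, 13 were higher in males and 13 in females (14 and 12 after scaling), against 6.2% and 16.2% of all. Beside Cyp2d9, genes higher in males included Cyp2u1, a fatty acid hydroxylase (22.9 ± 5.07 TPM in males and 1.60 ± 0.448 TPM in females, 3.19), and Cyp2c67 (1.42), while Cyp2e1, the ethanol-inducible P450, stood at 6720 ± 1842 TPM in males and 6046 ± 862 TPM in females and did not pass (0.12). Of 8 Cyp3a genes, 7 were higher in females and 0 in males (6 and 0 after scaling), including Cyp3a11, the main drug-metabolising member (159 ± 84.3 TPM in males and 436 ± 77.8 TPM in females, -1.58). Of 13 Cyp4 genes, 4 were higher in males and 5 in females, and 5 and 3 after scaling. Without female replicate 3, 4, 5 or 6 or male replicate 2 or 4, 3 Cyp4 genes were higher in females. Within it the neighbouring genes of chromosome 4 went opposite ways, since Cyp4a12a and Cyp4a12b were higher in males while Cyp4a14 was at 5.31, 8.501 and 84.7 TPM in males and 700, 1306 and 2042 TPM in females (-6.51, SE 0.55, limma adjusted p = 3.08e-06).

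Conjugating enzymes and transporters split in the same manner. Their counts stand beside 6.2% of all genes higher in males and 16.2% in females. Of 14 sulfotransferases, 2 were higher in males and 9 in females (3 and 9 after scaling, 1 and 9 with the 3 muscle-bearing libraries left out). Sult2a8, a bile acid sulfotransferase, was at 387 ± 36.6 TPM in males and 93.0 ± 27.1 TPM in females (2.09), against the opposite difference of Sult2a1 and Sult2a2. Of 15 glucuronosyltransferases, 6 were higher in males, led by Ugt2b38 (2.501) and Ugt2b1 (1.58), and 4 in females, led by Ugt1a5 (-2.19), with 3 in females after scaling and 2 with the 3 muscle-bearing libraries left out. Ugt1a genes share exons, so their values rest on how shared reads were assigned. Of 21 glutathione S-transferases, 5 were higher in males and 10 in females (8 after scaling). Gstp1, the pi-class enzyme, was at 2512, 3128 and 5203 TPM in males and 373, 442 and 510 TPM in females, without overlap (2.90, limma adjusted p = 2.31e-08), whereas Gstp3, Gstm2 and Gstt3 were lower in males by -1.05, -0.98 and -1.46. Of 29 transporters, 7 were higher in males and 10 in females (8 and 9 after scaling). The organic anion uptake genes Slco1a1 and Slco1a4, neighbours on chromosome 6, went opposite ways: Slco1a1 was at 233 ± 46.8 TPM in males and 12.7 ± 11.1 TPM in females (4.42), and Slco1a4 at 11.1 ± 3.25 TPM in males and 69.5 ± 14.6 TPM in females (-2.56). Likewise Slc22a28 was higher in males (3.42) and Slc22a27 and Slc22a26 in females (-5.13 and -5.86).

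**Figure D3:**
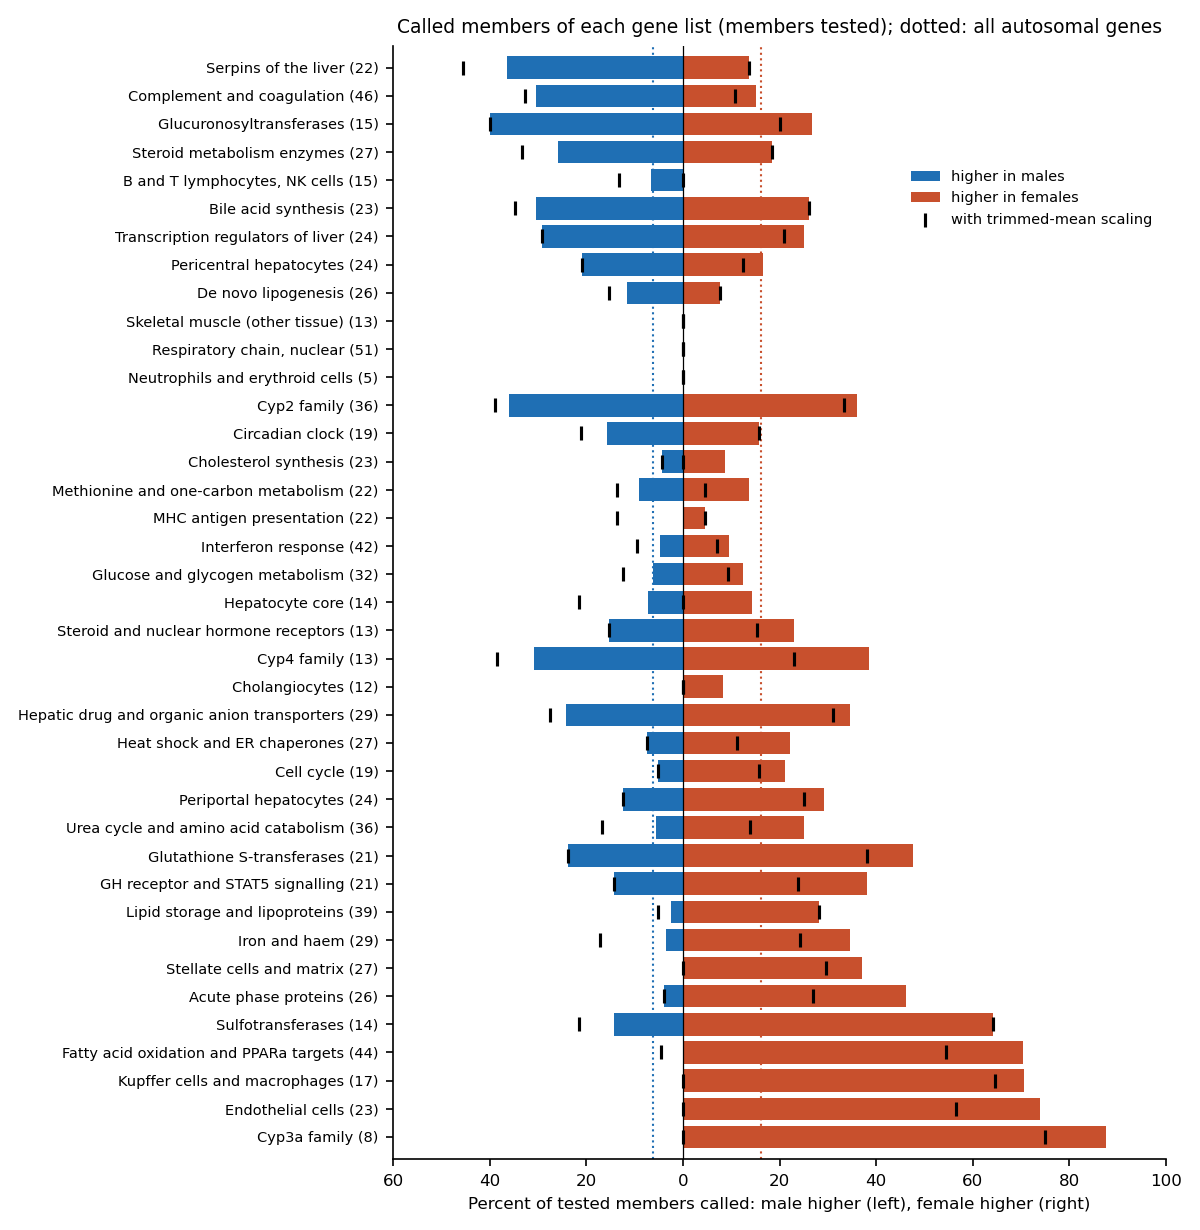
Percentage of tested members of each gene list drawn called higher in males (blue, to the left) and higher in females (red, to the right). The number tested is in brackets. Black ticks give the same after trimmed-mean scaling, and dotted lines the 6.2% and 16.2% of all autosomal genes. Lists with few tested members and the Mup, flavin monooxygenase and literature lists are not drawn. Serpins reach left for 8 of 22 genes and right for 3, while Cyp3a (7 of 8), endothelial (17 of 23), Kupffer cell (12 of 17) and fatty acid oxidation genes (31 of 44) reach right with 0 to the left.

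Genes of steroid and bile acid metabolism differed in both directions. Of 27 steroid enzymes, 7 were higher in males and 5 in females (9 and 5 after scaling), against 6.2% and 16.2% of all. Beside Hsd3b5, the ketosteroid reductases Akr1c6 and Akr1c14 were higher in males (0.87 and 0.85), and Cyp17a1, which makes androgen precursors, was at 21.99, 39.1 and 59.3 TPM in males and 327, 650 and 683 TPM in females, without overlap (-3.83, limma adjusted p = 1.27e-07). Of 23 bile acid genes, 7 were higher in males and 6 in females (8 and 6 after scaling). Cyp7b1, the oxysterol hydroxylase of the acidic pathway, was at 142, 186 and 317 TPM in males and 12.1, 13.5 and 19.96 TPM in females (3.73, limma adjusted p = 1.38e-08), and Cyp8b1, which sets cholic acid output, was higher in males too (1.19). Cyp7a1, the rate-limiting enzyme of the classical pathway, did not pass (52.3 ± 15.3 TPM in males and 36.3 ± 25.4 TPM in females, 0.71, limma adjusted p = 0.191). Acnat2 and Cyp39a1 were lower in males (-3.41 and -2.04). Cholesterol synthesis had 1 of 23 genes higher in males and 2 in females, with 0 in females after scaling and with the 3 muscle-bearing libraries left out.

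Fatty acid oxidation genes and targets of the nuclear receptor PPARα were lower in males as a group. Of 44 tested, 0 were higher in males and 31 in females, against 6.2% and 16.2% of all, with a median log2 difference of -0.53. After scaling 2 were higher in males and 24 in females, with a median of -0.42, against -0.00 for all genes. Acot3, a peroxisomal thioesterase, was at 0.542, 4.09 and 6.42 TPM in males and 74.3, 137 and 221 TPM in females (-4.99, limma adjusted p = 2.05e-06). Cyp4a10, an omega-hydroxylase, was at 77.8 ± 82.3 TPM in males and 817 ± 294 TPM in females (-3.85), and Cd36, the fatty acid translocase, at 13.7, 22.02 and 30.8 TPM in males and 50.7, 114 and 148 TPM in females (-2.20). Ppara itself was called lower in males (-0.40, limma adjusted p = 0.0406), a call that ended after scaling, without the 3 muscle-bearing libraries, and without male replicate 1, 2 or 5 or female replicate 1, 2, 4 or 5 (adjusted p of 0.0293 to 0.148 over all settings). De novo lipogenesis had 3 of 26 genes higher in males and 2 in females (4 and 2 after scaling, 2 and 1 with the 3 muscle-bearing libraries left out). Elovl3, an elongase of very long chain fatty acids, was at 171, 194 and 230 TPM in males and 4.93, 6.84 and 10.1 TPM in females (4.67, limma adjusted p = 6.46e-11), and Srebf1, the lipogenic regulator, was higher in males (1.06), while the synthase gene Fasn did not pass (-0.22). Of 39 lipid storage and lipoprotein genes, 1 was higher in males, Fitm1 (2.11), and 11 in females (2 and 11 after scaling), with the droplet proteins Plin5 (-2.02), Plin4 (-2.15) and Plin2 (-0.65) among them.

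Other metabolic groups held few large differences. Of 32 glucose and glycogen genes, 2 were higher in males and 4 in females (4 and 3 after scaling), with glycogen synthase Gys2 at 0.86. These counts lay near the shares of all genes, 6.2% and 16.2%, or 10.1% and 8.86% after scaling. Of 36 urea cycle and amino acid genes, 2 were higher in males and 9 in females, and the balance turned after scaling to 6 and 5. With the 3 muscle-bearing libraries left out 1 was higher in males and 5 in females. Arg1, the arginase of the urea cycle, was at 2158 ± 179 TPM in males and 3337 ± 567 TPM in females (-0.61). Of 22 methionine and one-carbon genes, 2 were higher in males and 3 in females (3 and 1 after scaling), with Mat1a, which makes S-adenosylmethionine, at -0.93. Nuclear respiratory chain genes had 0 of 51 called in either direction by limma, also after scaling (0 higher in males and 6 in females at an unadjusted p under 0.05), while up to 4 were called higher in females with 1 library left out. Of 29 iron and haem genes, 1 was higher in males and 10 in females (5 and 7 after scaling). Hamp2, a hepcidin paralogue, was at 92.9, 166 and 312 TPM in males and 1755, 2441 and 3714 TPM in females (-3.96, limma adjusted p = 5.50e-07), whereas Hamp, which encodes the iron hormone hepcidin itself, was at 4610 ± 1542 TPM in males and 6785 ± 1987 TPM in females and did not pass (-0.56, limma adjusted p = 0.139).

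Complement and serpin genes leaned to males, and acute phase genes to females. Of 46 complement and coagulation genes, 14 were higher in males and 7 in females, and 15 and 5 after scaling. Shares over all genes were 6.2% and 16.2%. With the 3 muscle-bearing libraries left out, 8 complement genes were higher in males and 6 in females. The genes of the membrane attack complex stood out: C6 was at 154, 207 and 244 TPM in males and 12.6, 17.0 and 23.8 TPM in females (3.50, limma adjusted p = 9.97e-10), C8a and C8b differed by 3.04 and 2.59, and C9 by 1.81. Of the other genes of that complex tested, C7 was low in both sexes (1.62 ± 0.510 TPM in males and 1.40 ± 0.223 TPM in females, 0.11) and Hc, the gene of the fifth component, had a difference of 0.34, and neither passed. The C1q genes, made by macrophages, were lower in males (C1qc -0.84). Of 22 serpins, 8 were higher in males and 3 in females (10 and 3 after scaling), with Serpina3k at 10774 ± 1135 TPM in males and 5370 ± 2265 TPM in females (1.10) and Serpina3m in the opposite direction (-1.15). Of 26 acute phase genes, 1 was higher in males (Socs3) and 12 in females, and 7 in females after scaling. Mt1 and Mt2, metal-binding metallothioneins, had medians of 38.0 and 12.3 TPM in males and 338 and 192 TPM in females (-2.79 and -3.62), with wide and overlapping libraries, and Lbp, which binds bacterial endotoxin, was lower in males (-1.49). Saa1, a serum amyloid gene, was at 116 ± 204 TPM in males and 19.9 ± 14.1 TPM in females and did not pass (1.48, limma adjusted p = 0.166). Of 42 interferon response genes, 2 were higher in males and 4 in females (4 and 3 after scaling, 0 and 3 with the 3 muscle-bearing libraries left out, and 7 in females without female replicate 3), and of 22 MHC genes 0 and 1 (3 and 1 after scaling).

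Many markers of endothelial cells, Kupffer cells and stellate cells were lower in males, and few or none of lymphocytes, cholangiocytes or neutrophils and erythroid cells were called. In bulk tissue, fewer cells of a type and less RNA per cell cannot be told apart. Over all genes 16.2% were higher in females and 6.2% in males. Of 23 endothelial genes tested, 17 were higher in females and 0 in males, 13 after scaling, and 11 with the 3 muscle-bearing libraries left out. Their mean log2(TPM + 1) was 3.33 to 3.64 in males and 3.73 to 4.42 in females, without overlap. Lyve1, a hyaluronan receptor of sinusoidal endothelium, was at 4.93, 7.04 and 9.76 TPM in males and 10.2, 28.5 and 32.7 TPM in females (-1.51, limma adjusted p = 0.00205), and Cdh5, an endothelial cadherin, differed by -0.80. Of 17 Kupffer cell and macrophage genes, 12 were higher in females and 0 in males (11 after scaling), with means of 4.49 to 5.34 in males and 5.25 to 6.52 in females. The 6.52 was female replicate 5, against 5.25 to 5.61 in the other females. Cd163, the haemoglobin scavenger receptor, was at 6.76, 10.2 and 15.3 TPM in males and 20.4, 39.5 and 39.6 TPM in females (-1.57, limma adjusted p = 0.000259), and the Kupffer cell lectin Clec4f differed by -0.97. Of 27 stellate cell and matrix genes, 10 were higher in females and 0 in males (8 after scaling), led by Col14a1 (-0.78) and Ecm1 (-0.76), with means of 2.93 to 3.33 in males and 3.20 to 4.02 in females. The 4.02 was the muscle-bearing female replicate 3, against 3.20 to 3.70 in the other females. Beside these, 14 hepatocyte core genes had means of 11.7 to 12.1 in males and 11.9 to 12.1 in females, with 1 called higher in males and 2 in females, 3 and 0 after scaling, and 1 and 1 with the 3 muscle-bearing libraries left out. Of 15 lymphocyte genes 1 was higher in males (Cd4, 0.81; 2 after scaling), of 12 cholangiocyte genes 1 was higher in females (0 after scaling and without the 3 muscle-bearing libraries), and of 5 neutrophil and erythroid genes 0 were called (1 at an unadjusted p under 0.05).

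**Figure D4:**
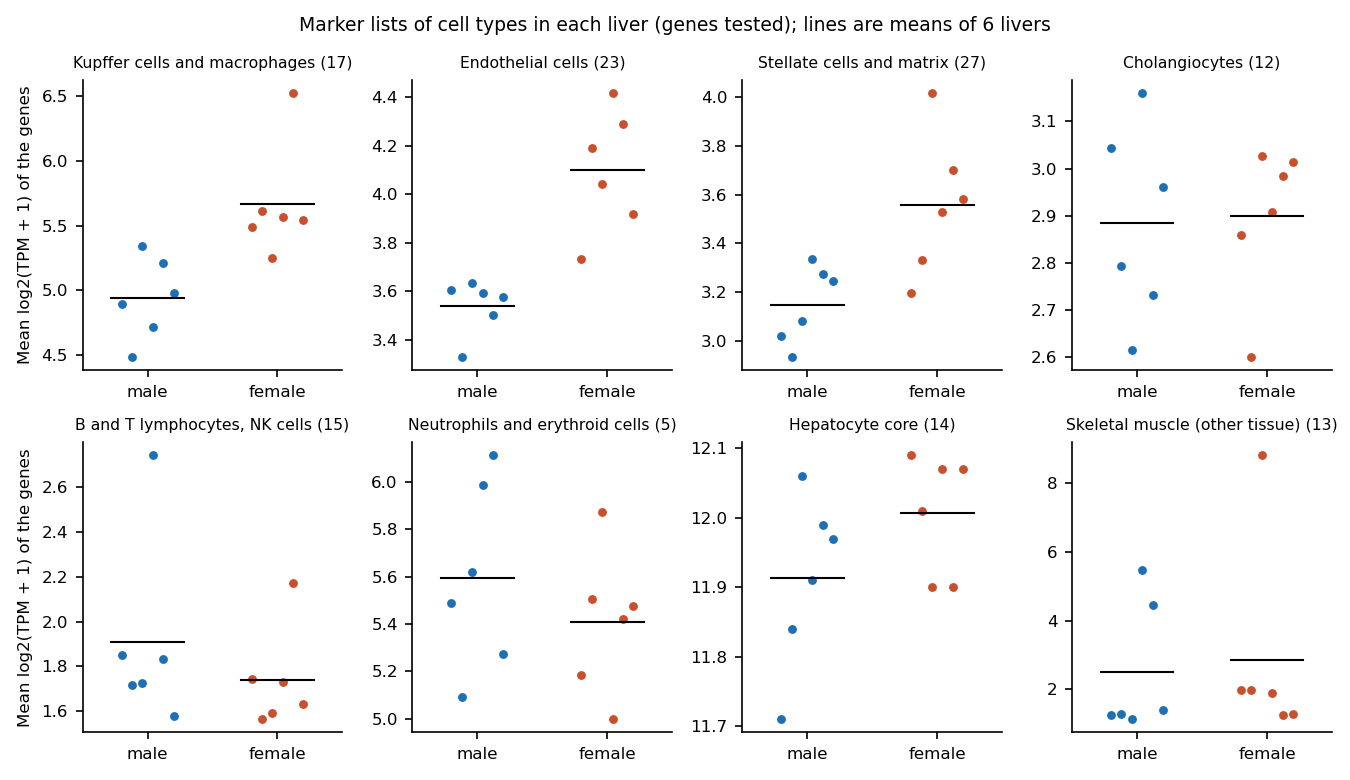
Mean log2(TPM + 1) over the tested markers of hepatocytes and of other liver cell types in each library (y axis), with 6 male libraries (blue) left of 6 female libraries (red) in each panel and lines at the means. The endothelial markers of the sexes do not overlap (3.33 to 3.64 in males and 3.73 to 4.42 in females), while the hepatocyte core markers do.

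Markers of other tissues were low apart from muscle. The highest values in males and females were 2.97 and 1.51 TPM for Adipoq (fat), 0.501 and 0.514 TPM for Umod (kidney), 0.147 and 0.155 TPM for Cyp11a1 (adrenal cortex), and 0 and 0.172 TPM for Prss2 (exocrine pancreas). Cyp21a1, a steroid hydroxylase of the adrenal cortex list, was called higher in males at 1.05, 2.36 and 4.72 TPM, against 0.0656, 0.252 and 1.22 TPM in females, with overlap (1.32, limma adjusted p = 0.00513, and 0.193 in a fit of all 48 libraries, which ended the call), and so was Cela1, an elastase of the pancreas list, with 17.8, 26.8 and 36.5 TPM in males and 8.95, 11.7 and 15.8 TPM in females (1.10). Of 13 muscle genes 0 were called by limma, and 0 had an unadjusted p under 0.05; with the 3 muscle-bearing libraries left out, 1 was called higher in males.

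Zonation, stress and timing genes held calls in both directions. Over all genes 6.2% were higher in males and 16.2% in females, and several of the counts below lay near those shares. With all 12 libraries and no scaling, pericentral, periportal and clock genes lay further above the male share. Periportal, heat shock and cell cycle genes lay further above the female share. Of 24 pericentral genes, 5 were higher in males, Cyp1a2 among them (669 ± 79.5 TPM in males and 320 ± 53.9 TPM in females, 1.07), and 4 in females (5 and 3 after scaling). Of 24 periportal genes, 3 were higher in males, with Mup20 and Cyp2f2 (1.28), and 7 in females (3 and 6 after scaling), or 4 in females with the 3 muscle-bearing libraries left out. Of 27 heat shock and chaperone genes, 2 were higher in males and 6 in females (3 in females after scaling, and 1 and 5 with the 3 muscle-bearing libraries left out). Of 19 clock genes, 3 were higher in males and 3 in females (4 and 3 after scaling). Bhlhe41, a repressor of the clock, was higher in males (1.85), and the activators Arntl and Clock were lower in males (-1.38 and -0.59), while the hour of collection is not among the labels. Female replicate 1 stood apart for this list, with a mean log2(TPM + 1) over the clock genes of 3.65, against 4.36 to 4.58 in the other females and 4.32 to 4.74 in males. Arntl was at 0.616 to 0.900 TPM in males and at 11.7 TPM in that female, against 1.73 to 3.78 TPM in the other females. Arntl thus passed the filter through females alone, so its p-value is no separate evidence, also without female replicate 1. Without female replicate 1, Arntl, Clock and Bhlhe41 differed by -1.08, -0.48 and 1.76 and each was still called (limma adjusted p = 0.000378, 0.00814 and 7.14e-05). With the 3 muscle-bearing libraries left out, 1 clock gene was higher in males. Of 19 cell cycle genes, 1 was higher in males and 4 in females (1 and 3 after scaling, 0 and 3 with the 3 muscle-bearing libraries left out). Cdkn1a, which encodes a cyclin-dependent kinase inhibitor, was at 2.43, 3.62 and 6.19 TPM in males and 21.4, 59.0 and 100.1 TPM in females, without overlap (-3.51, SE 0.30, limma adjusted p = 3.70e-06), and Ccnd1, the G1 cyclin, was lower in males with overlap (-1.91).

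The same comparison could be made in other animals on the same diet, namely 6 males and 6 females given the mixture, which share no library with the vehicle livers. Of the 808 genes higher in vehicle males, 778 (96.3%) had the same sign there and 454 (56.2%) were called higher in males, against 4.5% of all autosomal genes. Of the 2116 higher in vehicle females, 2095 (99.0%) had the same sign and 1212 (57.3%) were called, against 14.7% of all. Of those at 4-fold or more, 67 of 68 and 74 of 74 were called in the same direction. A single gene, the predicted Gm20688, was called in the opposite direction. These counts are from TPM without scaling, and an offset shared by both sets of livers would repeat the sign of small differences. With trimmed-mean scaling of each set, 1334 of 2467 called genes were called in the same direction, against 1666 of 2924 without it. Signs after scaling were not counted. Mup20 was at 11620 ± 4654 TPM in exposed males and 73.7 ± 26.1 TPM in exposed females, (SD, n = 6 per group), and Cyp2a4 at a median of 18.1 TPM in exposed males and 1496 TPM in exposed females. The test of the difference itself called 0 of 13030 genes (0.0%, limma on 48 libraries, lowest adjusted p = 0.9997, 558 genes at an unadjusted p under 0.05).

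On the high-fat diet the sex difference itself differed for many genes. The interaction of sex and diet in vehicle livers was called for 2821 genes (21.7%, limma on 48 libraries), which included 354 of the 808 genes higher in LFD males (43.8%) and 1325 of the 2116 higher in LFD females (62.6%). The male minus female difference was smaller or turned on the HFD for 351 of the 354 and 1317 of the 1325. This contrast contains the LFD vehicle libraries that gave the calls. The HFD animals were numbered separately, and diet and a possible separate cohort cannot be told apart. In the HFD vehicle livers alone, 244 of the 808 were again called higher in males (30.2%, against 8.55% of all) and 209 of the 2116 higher in females (9.88%, against 3.64% of all), while 20 and 150 were called in the opposite direction. In TPM without scaling, the sign was the same as in LFD livers for 594 of the 808 (73.5%) and 952 of the 2116 (44.99%). Of those at 4-fold or more, 45 of 68 and 53 of 74 were called in the same direction. Their median log2 difference was 1.22 for the genes higher in males (3.07 in LFD vehicle livers) and -1.79 for those higher in females (-3.19 in LFD vehicle livers).

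Individual genes took different courses between the diets. Hsd3b5 was at 1.14, 4.26 and 114.9 TPM (lowest, median and highest) in HFD males, where 1 library held the high value, and at 0.391, 0.740 and 2.497 TPM in HFD females. Moxd1 was at 0.278 ± 0.226 TPM in HFD males and 0.112 ± 0.107 TPM in HFD females, so that the differences of both genes were smaller there (interactions -3.85 and -5.15 in log2, limma adjusted p = 0.00044 and 9.01e-06). Cyp2b9 did so through the males, with 159 ± 128 TPM in HFD males and 647 ± 97.6 TPM in HFD females (interaction 5.32, limma adjusted p = 9.06e-09). Cyp3a44 did so through the females, with 0.454 ± 0.250 TPM in HFD males and 9.64 ± 3.90 TPM in HFD females (interaction 4.28). Sult2a2 went the other way, at 1.95 ± 0.769 TPM in HFD males and 1327 ± 168 TPM in HFD females (interaction -1.46, limma adjusted p = 0.00766). Cdkn1a was at 22.04 ± 10.5 TPM in HFD males and 13.1 ± 4.15 TPM in HFD females, a difference of 0.63 that did not pass on that diet (interaction 4.14, limma adjusted p = 3.32e-08). Cd36 was at 179 ± 34.7 TPM in HFD males and 193 ± 41.4 TPM in HFD females (interaction 2.08, limma adjusted p = 1.25e-05). Markers of other cell types moved as well, with Cd163 and Lyve1 differing by -0.23 and 0.22 on the HFD (interactions 1.34 and 1.73). For Prlr, Cux2, Hamp2, Esr1 and Cyp3a41a the interaction did not pass, with HFD differences of -1.79, -2.91, -3.77, -0.98 and -7.28.

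**Figure D5:**
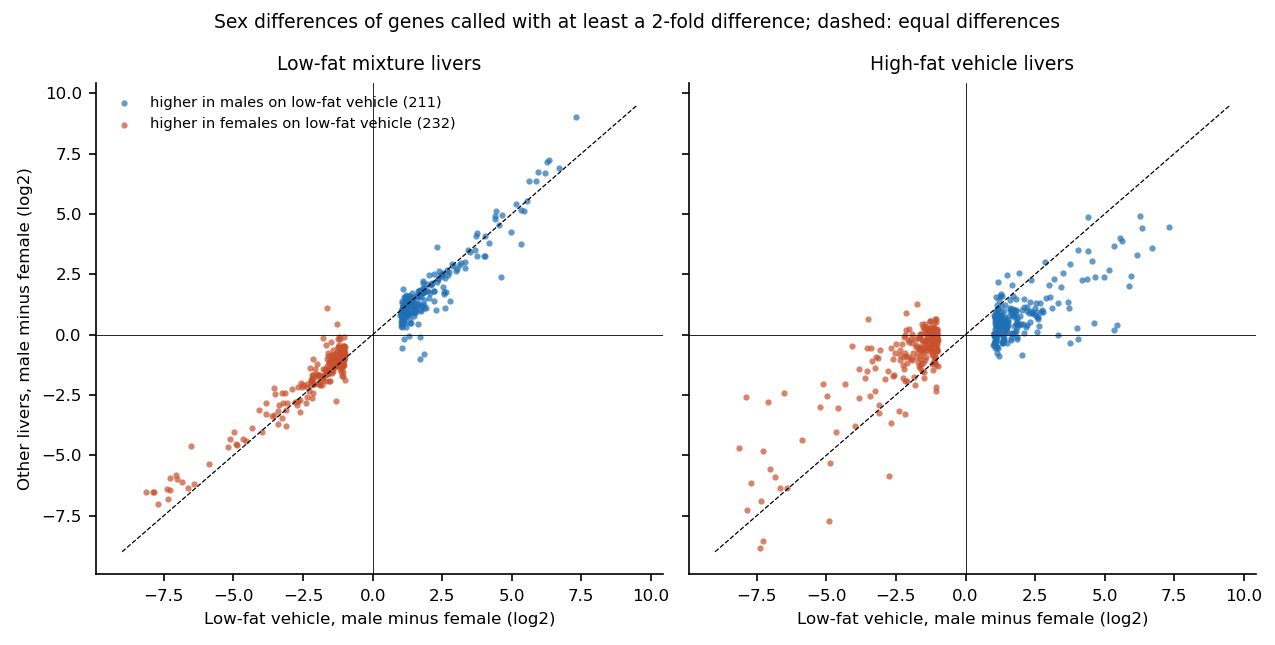
Male minus female log2 difference of the 211 and 232 genes called with at least a 2-fold difference in LFD vehicle livers (x axis) against the same difference in LFD mixture livers and in HFD vehicle livers (y axis, one panel each); blue points were higher in LFD vehicle males and red points in LFD vehicle females. The points lie along the diagonal in the mixture livers, where 67 of 68 and 74 of 74 were called in the same direction, and closer to 0 in the HFD livers, where 45 of 68 and 53 of 74 were (counts for genes at least 4-fold apart).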

How the data were processed

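Liver poly(A) RNA libraries were deposited by the authors as a TPM table of 49315 genes and 48 libraries. STAR 2.5.2b, Trimmomatic 0.36, FastQC, DESeq2 and the GRCm38 build are named, without roles, per the submitters' processing notes. The sources used here do not state the gene counter, gene lengths or strandedness. Every library sums to 1000000 TPM, so depth is unknown and no counting interval is given, and a few abundant genes can lower all others. Columns were matched to samples by name. Genes reaching 1 TPM in 6 or more of the 12 LFD vehicle libraries (13471, of which 13030 autosomal by GENCODE M21) were tested by limma (version 3.58.1, R 4.3.3) after a log2(TPM + 1) transform (empirical Bayes with an intensity trend, 10 residual degrees of freedom) and Benjamini-Hochberg adjustment over all 13471. Differences between diets or exposures came from 1 fit of 48 libraries (40 residual degrees of freedom). Trimmed-mean scaling left out 30% of log ratios and 5% of levels at each end. The procedure was tested on simulated data. Named genes were the 12 largest differences in each direction whose higher sex averaged 5 TPM or more, all members of 3 regulator lists, and the 4 members of lowest p of each other list of 47; 1 gene that met the rule is not reported here, and further list members were named after their values were seen. The comparison, members and lists were chosen with earlier results of these data known. Alternatives covered scaling, filter, pseudocount, trend, replicate block and left-out libraries.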

Additional observations from a re-analysis of the deposited data

Results flagged for a closer look

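In 2 of 104 groups of 6 libraries, over 52 genes, 1 library lay far from the other 5, which chance gives in about 1 of 20 groups. Male replicate 2 was at 3.74 log2(TPM + 1) for the pseudogene Mup-ps20, below the other males, and female replicate 1 was at 9.58 for Cyp2a4, below the other females.

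The male minus female difference itself differed between HFD vehicle and LFD vehicle livers for 19 of the 23 leading genes (limma interaction, adjusted p under 0.05). Over all autosomal genes tested it did so for 2821 (21.7%). The 23 were picked for large differences in the LFD vehicle libraries, which this contrast also contains. That choice favours smaller differences on the HFD. Values are HFD minus LFD in log2. Among genes higher in LFD males it was -2.87 for Mup7, -3.13 for Mup14, -1.92 for Mup20, -3.51 for Mup11, -5.03 for Mup-ps20 and -1.66 for Mup-ps19. Outside that family it was -2.87 for Serpina1e, -3.85 for Hsd3b5, -1.57 for Cyp2d9, -5.15 for Moxd1, -1.365 for Cyp4a12a and -1.745 for Cyp4a12b. Among genes higher in LFD females it was 3.46 for Cyp2a4, 5.315 for Cyp2b9, 2.47 for Sult3a1, 4.275 for Cyp3a44 and 1.45 for Cyp3a16, all smaller differences on the HFD. Sult2a2 (-1.46) and Sult2a1 (-1.27) had larger ones. Diet and a possible separate cohort cannot be told apart.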

How the results depend on the processing

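The balance of directions moved most. After trimmed-mean scaling 1312 genes were higher in males and 1155 in females; the replicate block gave 1948 genes in all and 1350 higher in females; leaving out the 3 libraries with muscle transcripts gave 1359 higher in females; the cause was not tested. The other alternatives stayed within 1.5 times of the 2924 genes, from 2258 (no filter) to 3611 (all 48 libraries). Leaving out 1 library at a time gave 2317 to 2822 genes, with 683 to 795 higher in males and 1631 to 2055 in females. The interaction with diet ranged from 2029 to 3001 genes, and that with the mixture was 0 in each fit run. Genes called alike in the mixture livers numbered 1327 to 1666. Scaling also turned the balance of 8 gene lists, among them urea cycle, glucose, methionine, interferon and MHC genes. Of 2068 recounts of gene lists, 1861 stayed within 1.5 times of the reported count. Leaving out 1 library moved a reported count of 3 or more past that for Cyp4 genes higher in females (5, lowest 3), methionine genes higher in females (3, lowest 1, without male replicate 1, 2 or 5 or female replicate 2 or 5) and interferon genes higher in females (4, highest 7), while smaller counts ranged from 0 to 5. No named gene was called in the opposite direction. Of 211 named genes, 170 kept their side of the threshold in each setting that tested them, the 23 leading genes among them, but the 6 leading Mup genes and pseudogenes were not tested where TPM was rescaled without Mup genes. The labels state no pairing of same-numbered males and females. Their deviations had correlations of -0.226 to 0.00903, and none correlated best with its own number. Such correlations cannot show whether animals were handled in pairs, and the comparison was fitted without pairs. Since TPM keeps no depth, limits for low genes cannot be given.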
